A study of Rattus norvegicus with 16 samples.

Results

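RNA of the Achilles tendon was compared with RNA of the supraspinatus tendon of Sprague Dawley rats, across all genes of a deposited count table. The comparison used 8 of the 16 libraries of the series, 4 labelled Achilles and 4 labelled supraspinatus. The other libraries, 4 of patellar and 4 of forepaw flexor tendon, entered the models too, where they share the estimate of the spread and help set the slope of a muscle score, and serve below as reference levels. All were total RNA from 1 strain, and the labels name no treatment, genotype, sex or age. The titles join the word Rat to the numbers 1 to 4, which recur for each tendon, and whether a number stands for an animal is not stated. Nor is it stated that the libraries of a tendon came from separate animals, so p-values measure the spread between these libraries. Whether tissue was pooled is likewise not given in the sources used here.

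The Achilles tendon joins the calf muscles to the heel bone in the hindlimb. The supraspinatus tendon belongs to the rotator cuff of the shoulder and runs from its muscle to the head of the humerus. Both consist mainly of type I collagen fibres laid down by tendon fibroblasts, cells known for the transcription factors scleraxis (Scx) and mohawk (Mkx) and for the membrane protein tenomodulin (Tnmd). Tendons also hold a sheath, vessels, nerve endings and fat, a muscle end with multinucleated fibres, and a bone end with fibrocartilage. Sequencing RNA of a whole piece of tendon mixes all of these, so that fewer cells of a type and less RNA per cell cannot be told apart in any of the results.

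Total counts were 85403509 to 102491699 in the Achilles and 81788059 to 101675519 in the supraspinatus libraries, and the level that 3 counts stand for ranged from 0.0293 to 0.0367 CPM. Levels are CPM, counts divided by the TMM-scaled library total, and are given as mean ± SD over 4 libraries. Changes are log2 fold changes ± SE, positive where the level was higher in Achilles tendon, with Benjamini-Hochberg adjusted p-values from edgeR's quasi-likelihood test. A gene was called at an adjusted p under 0.05. In the 500 most variable genes each of the 8 libraries was nearest to a library of its own tendon, except Achilles 1, which was nearest to patellar 3. Achilles 1 also had the least muscle RNA, the lowest levels of the main tendon cell genes and the most myelin RNA of the Achilles libraries. Some of the results that rest on it are given with and without it. The defining tendon genes Scx, Mkx, Tnmd, Fmod, Thbs4 and Col1a1 were detected in all 8 libraries.

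Skeletal muscle RNA separated the 2 sets of libraries. Muscle fibre genes, 61 of them from lists of fast fibres, slow fibres and the contractile apparatus of all fibres, took 18.3, 14.3, 16 and 22.5% of the counts in supraspinatus 1 to 4. In Achilles 1 to 4 they took 0.147, 1.79, 0.489 and 1.74%. The ranges did not overlap, and the means were 17.8 ± 3.56% and 1.04 ± 0.849% (SD, n = 4 each, exact permutation test, two-sided p = 0.0286, the smallest that 70 splits can give). For reference, the share was 5.2 ± 2.44% in forepaw flexor and 1.35 ± 2.03% in patellar libraries, where patellar 1 alone held 4.38%.

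Acta1 (ENSRNOG00000017786), the actin of skeletal muscle thin filaments, stood at 53992, 39537, 48252 and 82586 CPM in supraspinatus 1 to 4. In Achilles 1 to 4 it stood at 109, 4401, 899 and 4268 CPM. Every supraspinatus library was far above every Achilles library (log2 fold change -4.54 ± 1.3, adjusted p = 0.0087, edgeR). Within Achilles tendon the Acta1 level followed the muscle share, of which Acta1 is itself a part. Ckm (ENSRNOG00000016837), the muscle creatine kinase, averaged 12768 ± 3885 CPM in supraspinatus tendon against 251 ± 229 CPM in Achilles tendon (-5.67 ± 1.4). The oxygen store Mb (-4.06 ± 1.1) and Neb, the giant protein along the thin filament (-4.15 ± 1.2), differed likewise. The promoters of such genes are shown because the genes moved together from library to library. The first 4 sequences, which all hold the E-box variant CAGCTG, and that of Tnnc2, which does not, are the 250 bases before the annotated start of Acta1 (chr19:68784195-68784444, minus strand), Ckm (chr1:88189211-88189460, plus strand), Myh4 (chr10:52421898-52422147, plus strand), Mybpc1 (chr7:24903374-24903623, minus strand) and Tnnc2 (chr3:173935340-173935589, minus strand), from RefSeq on build GRCr8. They are written 5′ to 3′ on the gene's strand, with every E-box (CANNTG), the motif class bound by myogenic factors such as MyoD, in capitals.
Acta1: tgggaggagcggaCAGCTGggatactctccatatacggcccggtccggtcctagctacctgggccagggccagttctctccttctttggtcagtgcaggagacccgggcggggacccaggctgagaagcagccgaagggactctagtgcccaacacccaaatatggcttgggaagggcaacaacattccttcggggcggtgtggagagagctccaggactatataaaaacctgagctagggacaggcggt
Ckm: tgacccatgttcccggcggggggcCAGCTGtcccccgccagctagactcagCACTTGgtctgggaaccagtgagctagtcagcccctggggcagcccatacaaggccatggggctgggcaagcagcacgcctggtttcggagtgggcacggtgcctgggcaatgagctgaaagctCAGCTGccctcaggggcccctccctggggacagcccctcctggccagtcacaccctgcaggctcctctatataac
Myh4: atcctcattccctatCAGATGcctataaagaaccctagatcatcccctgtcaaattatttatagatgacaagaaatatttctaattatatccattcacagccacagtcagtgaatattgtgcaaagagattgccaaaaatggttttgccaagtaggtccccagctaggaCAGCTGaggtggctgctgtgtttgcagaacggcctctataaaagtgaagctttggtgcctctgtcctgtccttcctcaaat
Mybpc1: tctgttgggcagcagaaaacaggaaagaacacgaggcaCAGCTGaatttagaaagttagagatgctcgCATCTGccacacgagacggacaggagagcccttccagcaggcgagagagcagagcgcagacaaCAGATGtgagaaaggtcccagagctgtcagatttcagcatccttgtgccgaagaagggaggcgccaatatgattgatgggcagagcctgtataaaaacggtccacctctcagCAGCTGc
Tnnc2: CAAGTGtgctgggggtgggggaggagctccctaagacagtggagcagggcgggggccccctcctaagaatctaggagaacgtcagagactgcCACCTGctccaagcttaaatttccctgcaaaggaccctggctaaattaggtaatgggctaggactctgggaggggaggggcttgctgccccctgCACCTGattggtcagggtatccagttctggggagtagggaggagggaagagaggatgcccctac
CAGCTG, which reads the same on both strands and is contained in CANNTG, was present in 23 of the 54 promoters (42.6%) listed for 48 fibre genes. By list it was in 2 of 10 fast fibre promoters (20%), 4 of 12 slow fibre promoters (33.3%) and 17 of 32 sarcomere and triad promoters (53.1%). Of the promoters of tendon cell genes 4 of 15 (26.7%) held it, and of all 33469 promoters, cut to the same 250 bases, 12% did. Any CANNTG was present in 85.2% of the fibre promoters and 65.5% of all. Of the fibre promoters extracted in the same way but not shown, that of Myh7 held CAGCTG, and those of Myl1, Pvalb and Tnnt1 did not. Such matches describe letters, not sites in use.

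The fibre genes were not higher in supraspinatus tendon to the same extent. All 11 fast fibre genes tested were called higher there, with a median log2 fold change of -6.56, where 24.7% of all genes tested were called higher in supraspinatus tendon, 25.4% were called higher in Achilles tendon and the median of all genes was 0.05. Among them were the fast myosin Myh4 (ENSRNOG00000049695, -7.59 ± 1.4) and the fast troponins Tnnt3 (-6.44 ± 1.2) and Tnnc2 (-6.41 ± 1.3). Myosin genes have near-identical copies that may split reads, so their levels are uncertain. Actn3, the fast-fibre Z-disc actinin, named after its values were seen, had 8809, 4964, 7207 and 7840 CPM in supraspinatus 1 to 4 but 14, 5.46, 3.67 and 5.05 CPM in Achilles 1 to 4. In contrast to Acta1, the Actn3 level did not rise in the Achilles libraries with more muscle RNA.

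Slow fibre genes gave another picture. Of 12 tested, 1 was called higher in supraspinatus and 1 in Achilles tendon, with a median of -0.99. The slow myosin Myh7 stood at 1291, 3856, 859 and 3248 CPM in supraspinatus 1 to 4 and at 1.33, 1601, 250 and 1550 CPM in Achilles 1 to 4. These ranges overlapped, and the difference did not pass the test (-1.44 ± 1.2, adjusted p = 0.354). The slow troponins Tnnt1 (-0.93 ± 1.1, adjusted p = 0.489) and Tnni1 (-1.01 ± 1, adjusted p = 0.421) did not pass either. The gene called higher in supraspinatus tendon was Mybpc1 (ENSRNOG00000056493), slow myosin-binding protein C, at 5920 ± 2014 against 397 ± 375 CPM (-3.90 ± 0.91, adjusted p = 0.0024). The summed level of 6 slow genes (Myh7, Myl2, Myl3, Tnnt1, Tnni1 and Tnnc1) was 0.0332, 2.24, 1.77 and 2.72 times that of the 11 fast genes in Achilles 1 to 4. In supraspinatus 1 to 4 this ratio was 0.0318, 0.116, 0.0231 and 0.0676. Achilles 2 to 4 thus lay above every supraspinatus library and Achilles 1, with almost no muscle RNA, lay among them, and the exact permutation test over the 8 libraries gave p = 0.0857. In flexor libraries the ratio was 0.0239 to 0.0327, and in patellar 1, the patellar library with the most muscle RNA, it was 0.000426. All 12 slow genes summed to 516, 6005, 1590 and 6185 CPM in Achilles 1 to 4. In supraspinatus 1 to 4 they summed to 10530, 15376, 6604 and 19280 CPM. The fast list summed to 214, 1702, 426 and 1477 CPM in Achilles 1 to 4 and to 66073 to 118791 CPM in supraspinatus libraries. By these sums Achilles 1 also had more RNA of the slow list than of the fast list. The 6 genes, however, gave only 7.11 of its 516 CPM. In patellar libraries the 12 slow genes summed to 491 to 521 CPM, while the 6 genes gave 8.61 to 56.4 CPM. The full slow list thus did not follow the 6 genes there, and its sum in Achilles 1 cannot be read as slow fibre RNA.

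**Figure D1:**
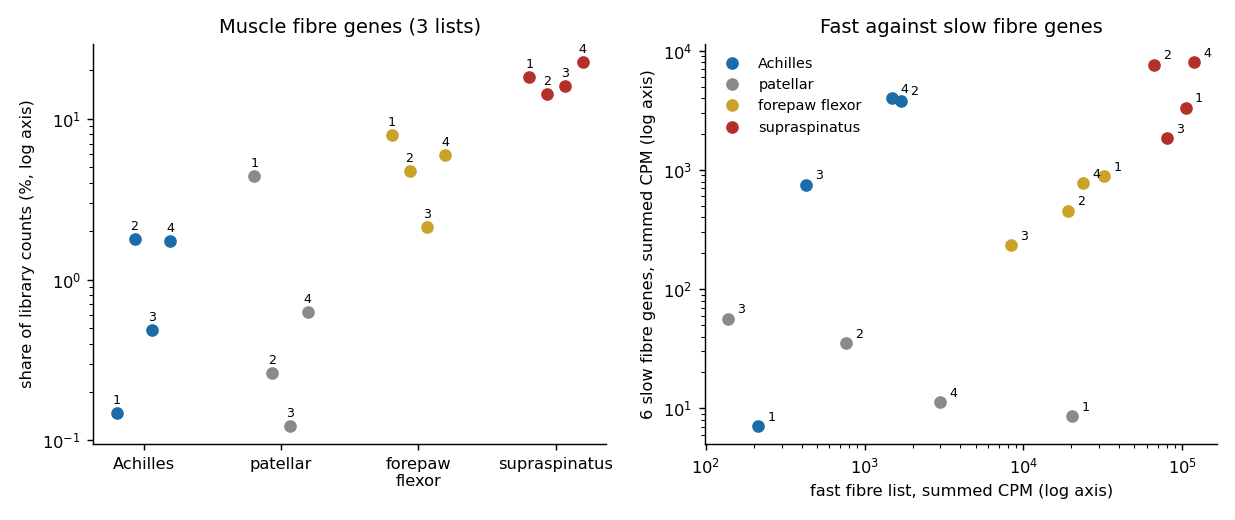
Left: share of library counts taken by 61 muscle fibre genes in each of the 16 libraries (log axis, numbered by replicate). Right: summed CPM of the fast fibre list against that of 6 slow fibre genes (log axes). Supraspinatus libraries lie at 14.3 to 22.5% on the left. On the right Achilles 2, 3 and 4 lie apart from the other libraries, with more RNA of the 6 slow genes than of the fast list.

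Genes of the sarcomere and triad common to all fibres were called higher in supraspinatus tendon for 36 of 37 tested (median -4.22). Neuromuscular junction genes followed for 8 of 9, among them the acetylcholine receptor subunit Chrnb1 (-3.79 ± 0.62) and its anchoring protein Rapsn (-1.78 ± 0.32). All 12 satellite cell and myogenic genes were called higher as well. Myod1, which commits cells to the muscle lineage, was at 67.4, 38, 51.4 and 59.5 CPM in supraspinatus 1 to 4 and at 0.0177, 0.559, 0.101 and 0.723 CPM in Achilles 1 to 4. Myf6, a factor of maturing fibres (-4.27 ± 1.1), Mef2c, a partner of the myogenic factors (-2.43 ± 0.28), and Chodl (-1.68 ± 0.41) differed less.

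Energy metabolism moved in the same direction. Of 32 oxidative phosphorylation genes 31 were called higher in supraspinatus tendon (median -1.63), with Atp5f1a, a subunit of ATP synthase, at 2342 ± 857 against 589 ± 61.3 CPM and Sdha of complex II at 811 ± 286 against 277 ± 36.2 CPM. Of 24 glycolysis and glycogen genes 15 were called higher in supraspinatus and 2 in Achilles tendon (median -1.78). The muscle isoforms of phosphorylase (Pygm, -5.89 ± 1.1) and phosphofructokinase (Pfkm, -5.23 ± 0.76) and the aldolase Aldoa (-4.11 ± 0.52) were on the supraspinatus side. The liver isoform of phosphorylase, Pygl, was on the Achilles side at 79.5 ± 46.9 against 15.3 ± 3.15 CPM (2.38 ± 0.41, adjusted p = 0.00024). The muscle share, 17.8 against 1.04%, moved with these groups.

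To set muscle RNA apart from genes of the tendon itself, the comparison was fitted a second way, with a muscle score of each library as a covariate. The score was the mean log2 CPM of 60 fibre genes, so its slope came from the differences in muscle RNA between libraries of 1 tendon. The tendon accounted for 78.1% of the variance of the score and the median SE grew 1.79 times, so a call lost in this fit is not an absent difference, and for muscle genes themselves the fit is circular. Over all genes, no library of one tendon overlapped those of the other for 21.6% (higher in Achilles) and 22.6% (higher in supraspinatus). Without the score 8497 of 16948 genes tested were called (50.1%), 4312 higher in Achilles (25.4%) and 4185 higher in supraspinatus tendon (24.7%). With the score 2234 were called (13.2%), 1165 and 1069 (6.87 and 6.31%). The counts of calls in each list are to be read beside these shares. Of the genes on no muscle list, 1110 of 4311 called higher in Achilles tendon (25.7%) and 1028 of 4117 called higher in supraspinatus tendon (25%) were called in the same direction in both fits. Of these 1028 genes, 909 had a flexor mean at or above the Achilles mean, and 93 had a flexor mean at or above the supraspinatus mean. Of the 1110 genes, 786 had a flexor mean at or above the supraspinatus mean and 118 at or above the Achilles mean. The flexor muscle share, 5.2%, also lay between 1.04% in Achilles and 17.8% in supraspinatus libraries. An in-between flexor level therefore cannot tell muscle RNA from tendon genes. The matching counts over all genes were not computed. The split of calls depended on scaling. On library totals without TMM 78.7% of the calls were higher in Achilles tendon in place of 50.7%, and the median of all genes moved by 0.41, so every change here is relative to the TMM scale. The form of the score mattered too, since the share of counts in percent as the score left 112 calls.

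**Figure D2:**
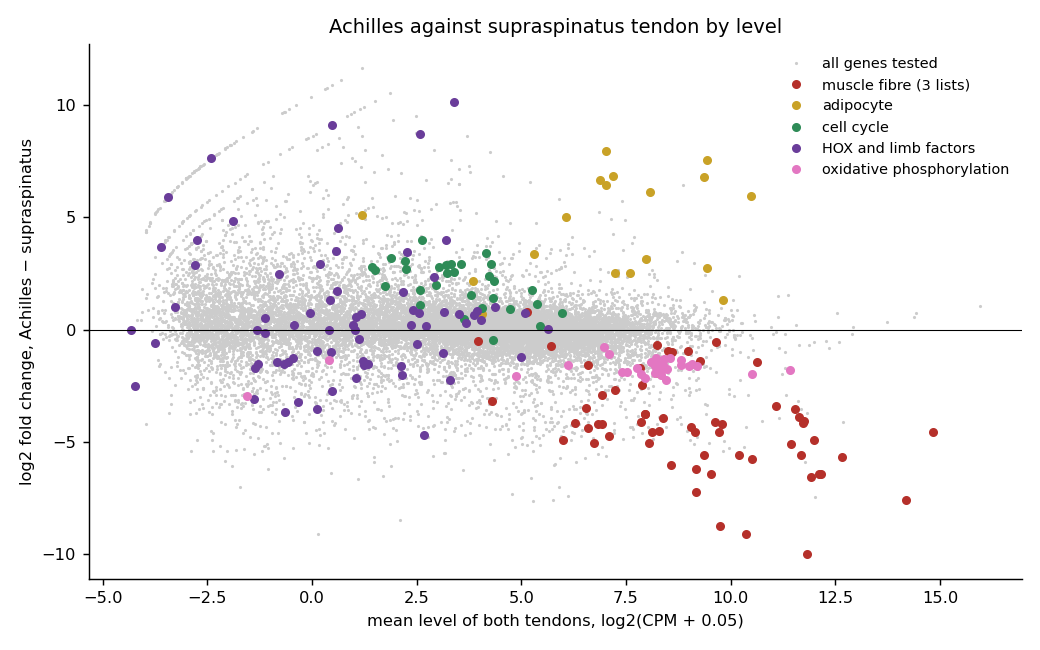
Log2 fold change (Achilles minus supraspinatus) against the mean level of both tendons, log2(CPM + 0.05), for all 16948 genes tested, with 5 groups of listed genes in colour. Muscle fibre genes fill the lower right, at high levels and changes down to -10.00 for Actn3. Adipocyte and cell cycle genes mostly lie above 0, with Slc2a4 of the adipocyte list at -1.92.

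**Figure D3:**
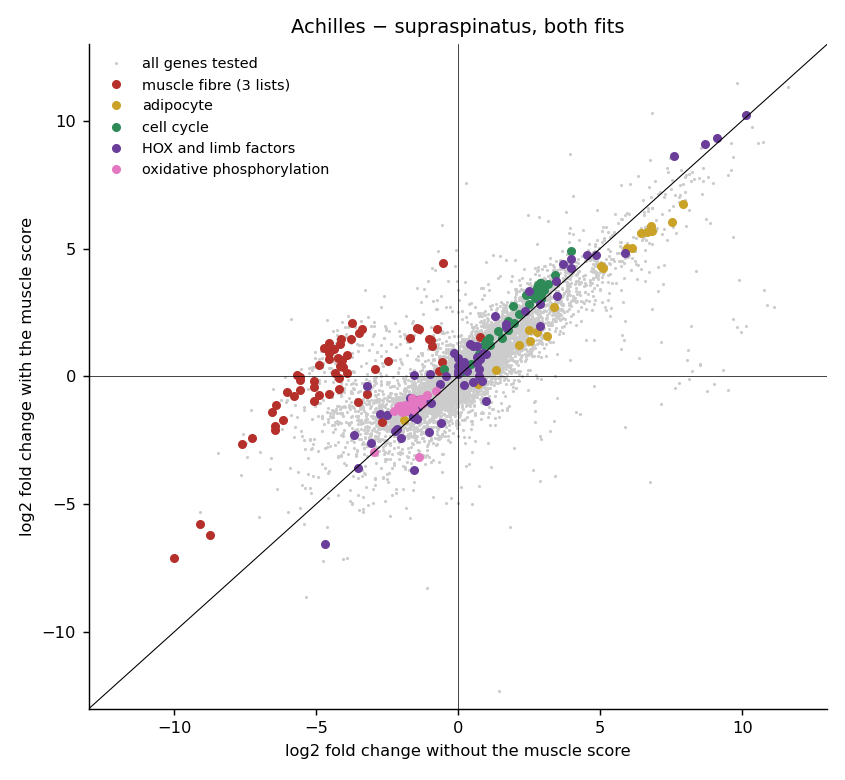
Log2 fold change of each gene without (x axis) and with (y axis) the muscle score, and the line of equal values. Fibre genes move from a median of -6.56 for the fast list to -1.93, whereas cell cycle genes lie near the line, with medians of 2.27 and 2.78.

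With the score none of the fast or slow fibre genes was called at an adjusted p under 0.05 in edgeR. Of the sarcomere and triad list 7 were then called higher in Achilles tendon, Neb among them (1.26, adjusted p = 0.0024), and 1 higher in supraspinatus tendon. Oxidative phosphorylation kept 5 calls and glycolysis 9, all higher in supraspinatus tendon, including Atp5f1a (-1.41, adjusted p = 0.044) and Aldoa (-2.30, adjusted p = 0.03), while Pygl was not called (1.08, adjusted p = 0.227). Some genes outside the fixed lists that muscle is known to express were also still called, so muscle genes are among those called in this fit. They included the neonatal myosin Myh8 (-7.63 without and -3.85 with the score), the muscle AMP-kinase subunit Prkag3 (-6.99 and -2.95), the sialidase Neu2 (-5.90 and -3.57), the costamere protein Cmya5 (-5.42 and -1.31) and the phosphorylase kinase subunit Phkg1 (-4.52 and -2.74).

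The genes with the largest changes towards supraspinatus tendon that were on no muscle list and called in both fits were led, beside those muscle genes, by Grem1. This gene (ENSRNOG00000026053), which encodes a secreted antagonist of bone morphogenetic proteins, stood at 100, 135, 115 and 89.4 CPM in supraspinatus 1 to 4 and at 1.55, 1.53, 0.877 and 3.08 CPM in Achilles 1 to 4. The lowest supraspinatus library was far above the highest Achilles library (-5.97 ± 0.40, adjusted p = 3.5e-07, and -5.29, adjusted p = 0.00039, with the score). Within tendons its level hardly followed the score (slope 0.14 log2 units per unit of score, against 1.39 for Acta1, which is itself part of the score). Slopes are given without SE. The score spanned 2.26 to 6.45 in Achilles but only 9.44 to 10.4 in supraspinatus libraries, so the slopes rest little on the latter. A low slope therefore does not set a gene apart from muscle RNA. Eya1, a co-activator with roles in muscle and connective tissue precursors (14.5 ± 4.67 against 0.297 ± 0.273 CPM), Sh3rf2 (17.2 ± 4.78 against 0.379 ± 0.215 CPM), the amino acid transporter Slc38a4 (88.3 ± 18.4 against 3.46 ± 1.01 CPM) and Cysrt1 (12.3 ± 4.89 against 0.497 ± 0.265 CPM) were in the same set. Their slopes on the score were 0.44 for Eya1, 0.24 for Sh3rf2, 0.38 for Slc38a4 and -0.24 for Cysrt1, where those of Neu2 and Phkg1 were 0.43 and 0.34. By p, the palmitoyltransferase-family gene Zdhhc1 came first on the supraspinatus side (-1.69 ± 0.090, adjusted p = 6.8e-08), with all 4 libraries at 113 to 137 CPM against 34.1 to 39.8 CPM in Achilles tendon.

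On the Achilles side the largest changes called in both fits included adipocyte genes such as Lep and Scd and genes with few counts in supraspinatus libraries. Lpo, which encodes lactoperoxidase, was at 10.5, 6.7, 9.46 and 2.01 CPM in Achilles 1 to 4 and had at most 1 count in a supraspinatus library. Alb, which encodes albumin, was at 8.63 to 14.2 CPM in Achilles tendon and had at most 2 counts in a supraspinatus library. The oxytocin receptor gene Oxtr stood at 29.4, 28.7, 31 and 17.5 CPM in Achilles 1 to 4 and at 0.049 to 0.275 CPM in supraspinatus tendon (7.28 ± 0.46, adjusted p = 3.2e-07). The membrane peptidase Mme, which fat and stromal precursors are known to carry, was at 36.9 ± 4.93 against 2.51 ± 0.562 CPM (3.88 ± 0.20). In both fits these 4 genes were called, and Mme and Oxtr were also among the 50 genes higher in Achilles tendon that were called in all 3 fits, without a score, with the score and with the share as the score. On the supraspinatus side 37 genes were called in all 3, among them Grem1, Tbx5, Meis1, Hoxc5, Rspo1, Zdhhc1 and Cysrt1.

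Few of the tendon cell genes themselves passed the test. Of 17 tested, 2 were called higher in Achilles and 2 in supraspinatus tendon, with a median of -0.29 that turned to 0.16 on library totals. Scx (ENSRNOG00000021812) stood at 5.67, 25.4, 26.7 and 86.4 CPM in Achilles 1 to 4 and at 27.5, 23, 16.3 and 10.8 CPM in supraspinatus 1 to 4. The Achilles libraries spanned the whole supraspinatus range, and the difference did not pass the test (0.89 ± 0.60, adjusted p = 0.23). Without Achilles 1 it did (1.25, adjusted p = 0.047), and without Achilles 4, the highest library, the change was -0.01 (adjusted p = 0.987), so single libraries carried it. With limma-voom the change in Scx was 0.32. Mkx (-0.15 ± 0.35, adjusted p = 0.743) and Tnmd (-0.51 ± 0.43, adjusted p = 0.338) did not pass. Tnmd (ENSRNOG00000060970) was at 195, 597, 413 and 935 CPM in Achilles 1 to 4 and at 1054, 999, 585 and 421 CPM in supraspinatus 1 to 4.

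The matrix proteins of tendon cells Fmod (-0.56 ± 0.30, adjusted p = 0.133), Kera (-0.78 ± 0.41, adjusted p = 0.133), Comp (-0.68 ± 0.37, adjusted p = 0.143) and Thbs4 (-0.80 ± 0.35, adjusted p = 0.068) did not pass either. All 4 were lowest in Achilles 1. Without Achilles 4, the Achilles library highest in them, all 4 were called higher in supraspinatus tendon (-0.79, -1.14, -1.07 and -0.99, adjusted p = 0.047, 0.039, 0.026 and 0.043). Whether these genes were called thus rested on single libraries. The genes called in the list were Tppp3 and Mustn1 towards supraspinatus and Clec11a and Fbln5 towards Achilles tendon. Tppp3 (ENSRNOG00000016890), a marker of sheath and progenitor cells, stood at 760, 750, 952 and 876 CPM in supraspinatus 1 to 4 and 223, 181, 182 and 171 CPM in Achilles 1 to 4 (-2.14 ± 0.17, adjusted p = 8.1e-07, and -1.96, adjusted p = 0.0014, with the score). Mustn1, which is named for its activity in musculoskeletal tissue and is also expressed in muscle, was at 1215 ± 257 against 122 ± 18.6 CPM (-3.31 ± 0.38). The growth factor Clec11a was at 466 ± 194 CPM in Achilles and 173 ± 98.2 CPM in supraspinatus tendon (1.43 ± 0.39, adjusted p = 0.0073, and 1.67, adjusted p = 0.124, with the score).

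**Figure D4:**
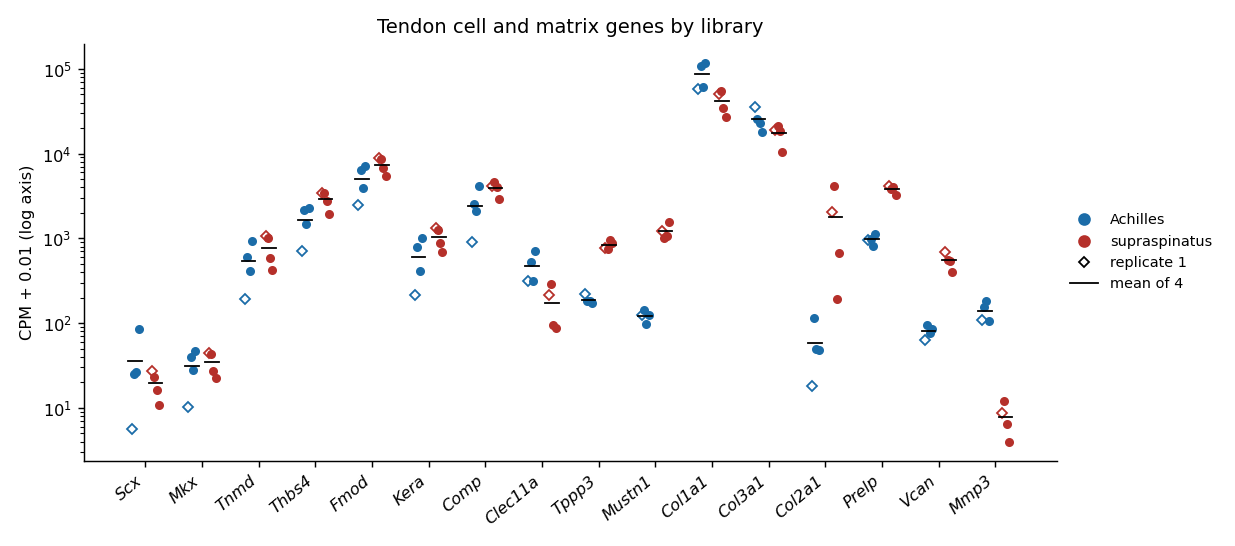
CPM (plus 0.01, log axis) of 16 tendon cell and matrix genes in each Achilles and supraspinatus library, with replicate 1 as open diamonds and the mean of 4 as a line. Achilles 1 is the lowest Achilles library from Scx to Comp, and for Tppp3, Mustn1, Col2a1, Prelp, Vcan and Mmp3 the tendons do not overlap.

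Among the fibrillar collagens 3 of 11 were called higher in Achilles and 3 in supraspinatus tendon, and none with the score. The 3 include Col1a2 (237 ± 151 against 74.9 ± 15 CPM), the partner chain of Col1a1, whose counts were far below those of Col1a1 in all 8 libraries and are uncertain. Col1a1 (ENSRNOG00000003897), the main chain of tendon collagen, was at 57082, 107991, 60382 and 117328 CPM in Achilles 1 to 4 and at 50213, 55429, 34382 and 26737 CPM in supraspinatus 1 to 4. Every Achilles library was above every supraspinatus library, the closest by a small margin (1.04 ± 0.33, adjusted p = 0.018). The call was lost without Achilles 2 (0.89, adjusted p = 0.055), without Achilles 4 (0.85, adjusted p = 0.052), in a fit of the 2 tendons alone (1.06, adjusted p = 0.054) and with the score (1.27, adjusted p = 0.15). Col3a1, the collagen of fine fibrils and repair tissue, did not pass (0.56 ± 0.28, adjusted p = 0.111), though on library totals it did. Col5a3 was higher in Achilles tendon (1.28 ± 0.27, and 0.52 with the score). Col2a1 (ENSRNOG00000058560), the collagen of cartilage, was at 2019, 4173, 195 and 669 CPM in supraspinatus 1 to 4 and at 18.2, 114, 49.6 and 48.4 CPM in Achilles 1 to 4. The tendons did not overlap, but the supraspinatus libraries spanned a wide range (-4.94 ± 0.79, adjusted p = 0.00014, and 0.052 with the score). Col24a1, a minor fibrillar chain, was also higher in supraspinatus tendon (-1.59 ± 0.27, and -1.22, adjusted p = 0.104, with the score).

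Of 24 other collagens 5 were called higher in Achilles and 4 in supraspinatus tendon. The basement membrane chains Col4a1 (0.85 ± 0.17, and 0.67, adjusted p = 0.152, with the score) and Col18a1 (427 ± 73.9 against 162 ± 42.9 CPM, 1.40 ± 0.22) were on the Achilles side. Col22a1, a collagen of the junction of muscle and tendon, was on the supraspinatus side at 158, 167, 167 and 203 CPM against 13.6, 56.1, 59.8 and 32.7 CPM in Achilles 1 to 4 (-2.10 ± 0.58, adjusted p = 0.0079), and its change was 0.19 with the score.

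Proteoglycans were called higher in Achilles tendon for 10 of 31 and in supraspinatus tendon for 4, beside 25.4 and 24.7% of all genes. Without Achilles 1 the counts were 7 and 4. Prelp (ENSRNOG00000003120), which anchors basement membranes to connective tissue, stood at 4141, 3872, 4025 and 3281 CPM in supraspinatus 1 to 4 and at 947, 976, 819 and 1138 CPM in Achilles 1 to 4 (-1.98 ± 0.22, adjusted p = 7.7e-06, and -1.92, adjusted p = 0.0054, with the score). The large proteoglycan Vcan was at 553 ± 121 against 79.7 ± 13.2 CPM (-2.79 ± 0.29, and -2.90 with the score). The slopes of Prelp and Vcan on the muscle score were 0.01 and -0.02, without SE, which does not set these genes apart from muscle RNA. The small proteoglycan Bgn was higher in supraspinatus tendon on the TMM scale (-0.90 ± 0.27) but was not called on library totals. The cell surface proteoglycan Sdc1 (1.76 ± 0.36) and the secreted Spock2 (1.96 ± 0.34) were higher in Achilles tendon, at 2.37 (adjusted p = 0.02) and 1.34 (adjusted p = 0.132) with the score.

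Matrix glycoproteins and elastic fibre genes gave 16 of 49 higher in Achilles and 8 higher in supraspinatus tendon, with a median of -0.06 that became 0.34 on library totals. Periostin (Postn), which promotes collagen assembly, was at 1551, 1267, 1103 and 684 CPM in Achilles 1 to 4 and at 318, 619, 294 and 175 CPM in supraspinatus 1 to 4 (1.71 ± 0.38, adjusted p = 0.0018, and 0.491 with the score). Elastin (Eln) was at 533 ± 137 against 189 ± 28.8 CPM. The collagen-binding protein Sparc differed by 0.72 ± 0.22 and lost its call in a fit of the 2 tendons alone (0.74, adjusted p = 0.059). On the supraspinatus side were Nov, a CCN family protein (1029 ± 500 against 338 ± 138 CPM, -1.61 ± 0.36, and -2.60 with the score), the cartilage intermediate layer protein Cilp (-1.03 ± 0.23, and -0.65, adjusted p = 0.281, with the score), Fbln2 (-0.71 ± 0.17) and fibronectin, Fn1 (-0.82 ± 0.24). The last 2 were not called on library totals.

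Enzymes that process collagen leaned towards Achilles tendon. Of 33 crosslinking and secretion genes 18 were called higher in Achilles and 4 in supraspinatus tendon (median 0.62, and 1.01 on library totals). Pcolce, which speeds the removal of the procollagen C-propeptide, was at 1508 ± 163 against 613 ± 204 CPM (1.30 ± 0.23), and the lysyl oxidase Loxl2 was at 593 ± 182 against 293 ± 66.7 CPM (1.02 ± 0.24). Plod2, the hydroxylase of the crosslinking lysines, was higher in supraspinatus tendon at 322 ± 23.1 against 125 ± 35.3 CPM (-1.37 ± 0.38). With the score 2 of the list were called towards Achilles and 1 towards supraspinatus tendon, with a median of 0.56. Pcolce (1.05, adjusted p = 0.092), Loxl2 (1.25, adjusted p = 0.062) and Plod2 (-0.48, adjusted p = 0.629) were then not called.

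Of 44 matrix proteases and inhibitors 17 were called higher in Achilles and 4 in supraspinatus tendon. Mmp3 (ENSRNOG00000032626), the stromelysin that degrades proteoglycans and activates other proteases, stood at 109, 157, 182 and 107 CPM in Achilles 1 to 4. In supraspinatus 1 to 4 it stood at 8.68, 12.2, 6.5 and 3.98 CPM. The lowest Achilles library was well above the highest supraspinatus library (4.14 ± 0.29, adjusted p = 5.1e-07), and the change was as large with the score (4.32, adjusted p = 0.00015). Mmp3 averaged 10.4 CPM in patellar and 67.8 CPM in forepaw flexor tendon. Its inhibitor Timp1 was higher in Achilles tendon as well (1.18 ± 0.15, and 1.19 with the score), as were the urokinase Plau (1.79 ± 0.25) and the collagen-degrading cathepsin Ctsk (1.28 ± 0.21). With the score Plau (0.86, adjusted p = 0.086) and Ctsk (0.92, adjusted p = 0.106) were not called. The versican-cleaving protease Adamts20 (27.8 ± 6.49 against 2.5 ± 1.42 CPM) was higher in supraspinatus tendon (-3.47), and with the score its change was -1.18 (adjusted p = 0.222, slope 0.49).

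Cartilage and bone genes, which the bone end of a tendon can express, were called on both sides. The cartilage list gave 7 of 20 higher in supraspinatus and 3 higher in Achilles tendon (median -0.59), and the osteoblast and mineralisation list gave 6 and 5 of 16 (median -0.45, and -0.05 on library totals). Sox9, the master factor of cartilage, stood at 48.5, 46, 56.4 and 63.2 CPM in supraspinatus 1 to 4 and at 7.6, 7.44, 7.4 and 24.8 CPM in Achilles 1 to 4 (-2.18 ± 0.55, adjusted p = 0.0042, and -1.14, adjusted p = 0.394, with the score). Its partner Sox6, which also represses slow fibre genes in muscle, was at 41.5 ± 7.27 against 9.77 ± 1.03 CPM (-2.09 ± 0.23, and -1.37, adjusted p = 0.016, with the score). Unlike Col2a1, the Sox9 level was similar in all 4 supraspinatus libraries. Phospho1, a phosphatase of mineralising cells that muscle also expresses, was at 192 ± 46.4 against 14.1 ± 5.94 CPM (-3.77 ± 0.57, and -1.57, adjusted p = 0.087, with the score, slope 0.46). Osteopontin (Spp1) was at 336 ± 76.7 against 102 ± 55.3 CPM (-1.71 ± 0.61, adjusted p = 0.03). Its call was lost on library totals (-1.32, adjusted p = 0.07), and leaving out each of Achilles 1, 2 and 3 and supraspinatus 2 and 3 gave adjusted p-values of 0.061, 0.077, 0.065, 0.067 and 0.052. Among 12 genes of the synovial lining and sheath 4 were called higher in Achilles and 3 in supraspinatus tendon. The hyaluronan synthase Has1, called higher in supraspinatus tendon, was highest in supraspinatus 4 at 288 CPM. It was not called without that library (-1.23, adjusted p = 0.108) or without Achilles 4 (-1.66, adjusted p = 0.051).

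HOX genes differed between the tendons by their place in the clusters. HOX genes are arranged in clusters whose low-numbered members act nearer the head and whose high-numbered members act nearer the tail or limb tip. Of 23 tested, 10 were called higher in Achilles and 7 in supraspinatus tendon. Those higher in supraspinatus tendon were Hoxb2, Hoxb3, Hoxb4, Hoxc4, Hoxc5, Hoxc6 and Hoxd3. Those higher in Achilles tendon were Hoxb6, Hoxb7, Hoxb8, Hoxb9, Hoxc8, Hoxc9, Hoxc10, Hoxc11, Hoxd10 and Hoxd11. In each cluster all called members of lower number were thus on the supraspinatus side and all called members of higher number on the Achilles side, although this order was noticed after the values were seen. With the score 9 and 3 of the same calls were made, and on library totals 10 and 5 members were called.

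Hoxc10 (ENSRNOG00000016149) stood at 10.6, 14.4, 9.95 and 12.7 CPM in Achilles 1 to 4 and had at most 4 counts in a supraspinatus library (8.70 ± 0.37, adjusted p = 7.4e-09, the smallest on the Achilles side). Hoxc11 was at 2.59, 2.57, 2.66 and 2.96 CPM in Achilles 1 to 4, with at most 1 count in a supraspinatus library. Hoxb7 was at 8.72 ± 0.959 against 0.786 ± 0.297 CPM (3.46 ± 0.24) and Hoxc5 at 1.74 ± 0.469 against 7.05 ± 1.89 CPM (-2.01 ± 0.25). Their slopes on the muscle score were 0.05 and -0.08, given without SE, and such low slopes do not set them apart from muscle RNA.

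Among 48 limb identity and regional factors 15 were called higher in Achilles and 14 in supraspinatus tendon, beside 25.4 and 24.7% of all genes. Tbx5 (ENSRNOG00000001399), required for the forelimb bud, was at 12.3, 14.2, 13.5 and 8.41 CPM in supraspinatus 1 to 4 and at 0.416, 0.466, 0.817 and 0.156 CPM in Achilles 1 to 4 (-4.70 ± 0.54, adjusted p = 1.2e-05, and -6.56, adjusted p = 0.0006, with the score). Tbx4, its hindlimb counterpart, was at 6.43, 15.3, 15.1 and 31.6 CPM in Achilles 1 to 4 and at 0.956 to 1.18 CPM in supraspinatus tendon (3.98 ± 0.49). Isl1 (ENSRNOG00000012556), a homeobox factor of the early hindlimb field, was at 12.8, 23, 22.8 and 24.4 CPM in Achilles 1 to 4 and had at most 3 counts in a supraspinatus library. Its patellar mean was 0.215 CPM. Across all 4 tendons Tbx4 did not follow the limb, since it averaged 31.1 CPM in forepaw flexor and 9.07 CPM in patellar tendon. Tbx5 averaged 29 CPM in forepaw flexor and 5.03 CPM in patellar tendon, so that both forelimb means were above both hindlimb means, but it was not absent from the patellar tendon. Pitx1, which specifies hindlimb identity, did not pass the test, at 3.9, 14.1, 18.5 and 35.5 CPM in Achilles 1 to 4 and 17.5, 7.78, 9.8 and 10 CPM in supraspinatus 1 to 4 (0.67 ± 0.52, adjusted p = 0.302). Meis1, a factor of the proximal limb, averaged 16.2 ± 1.68 CPM in supraspinatus tendon against 3.48 ± 0.84 CPM in Achilles tendon (-2.22 ± 0.21, and -2.15 with the score). Tbx15, active in shoulder girdle development, was also higher in supraspinatus tendon (-1.21 ± 0.18), though with the score its adjusted p was 0.063.

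**Figure D5:**
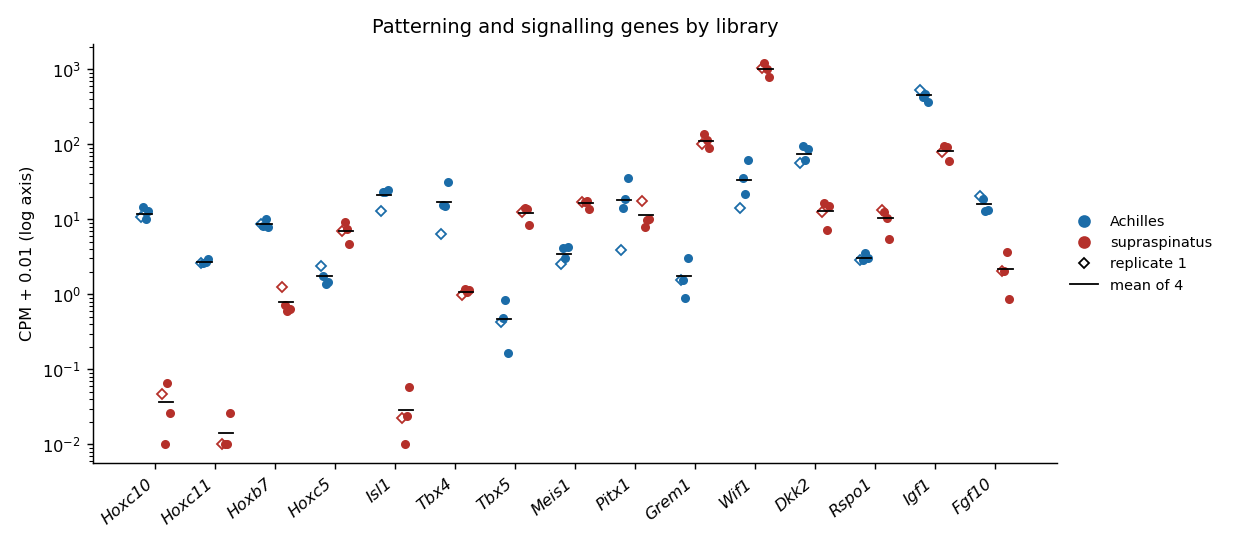
CPM (plus 0.01, log axis) of 15 patterning and signalling genes in each Achilles and supraspinatus library, with replicate 1 as open diamonds and the mean of 4 as a line. Only Pitx1 overlaps between the tendons among the genes shown, and Hoxc10, Hoxc11 and Isl1 lie at or near 0 counts in supraspinatus libraries.

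Signalling genes were called on both sides, where 25.4% of all genes tested were called higher in Achilles and 24.7% in supraspinatus tendon. Of 49 Wnt pathway genes 16 were called higher in Achilles and 10 in supraspinatus tendon. The secreted Wnt inhibitor Wif1 (ENSRNOG00000004476) stood at 1028, 1209, 997 and 798 CPM in supraspinatus 1 to 4 and at 14, 35.8, 21.4 and 60.9 CPM in Achilles 1 to 4 (-4.93 ± 0.79, adjusted p = 0.00013, and -2.93, adjusted p = 0.054, with the score). The antagonists Frzb (-1.74 ± 0.43, and -2.95 with the score) and Dkk3 (-1.32 ± 0.30, and -0.78, adjusted p = 0.316, with the score) and the agonist Rspo1 (-1.76 ± 0.41, and -3.15 with the score) were on the same side. The antagonist Dkk2 was higher in Achilles tendon at 56.3, 93.5, 61.1 and 86.4 against 12.4, 16.3, 7.21 and 15.2 CPM (2.54 ± 0.31, and 2.51 with the score), as was Sfrp2 (2.18 ± 0.46). Secreted inhibitors of the pathway were thus called on both sides.

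The TGF-beta and BMP list gave 13 of 48 higher in Achilles and 5 higher in supraspinatus tendon, and with the score 5 and 5. Beside Grem1, the ligand Bmp5 (62.1 ± 18.1 against 15.7 ± 3.61 CPM) and the receptor Acvr2b (7.74 ± 1.71 against 1.01 ± 0.517 CPM) were higher in supraspinatus tendon. Id1 and Id3, which BMP signals are known to induce, were higher in Achilles tendon. Id3 was at 247, 257, 209 and 234 CPM in Achilles 1 to 4 and at 60.8, 77.4, 98.1 and 109 CPM in supraspinatus 1 to 4 (1.45 ± 0.18, and 1.63, adjusted p = 0.0046, with the score), and Id1 differed by 1.11 ± 0.26 (1.43, adjusted p = 0.051, with the score).

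Insulin-like growth factor genes were called higher in Achilles tendon for 5 of 16 and in supraspinatus tendon for 3. Igf1 (ENSRNOG00000004517), a growth factor for tendon cells and muscle alike, stood at 532, 420, 473 and 362 CPM in Achilles 1 to 4 and at 78, 93.4, 91.5 and 60.2 CPM in supraspinatus 1 to 4 (2.47 ± 0.16, adjusted p = 3.5e-07, and 2.04, adjusted p = 0.00037, with the score). The binding proteins Igfbp4 (982 ± 185 against 128 ± 41.7 CPM) and Igfbp5 (3348 ± 614 against 1178 ± 263 CPM) were higher in Achilles tendon in both fits, and the clearance receptor Igf2r was higher in supraspinatus tendon (-0.86 ± 0.13, and -0.70, adjusted p = 0.057, with the score). Of 30 FGF and PDGF genes 6 were called higher in Achilles and 8 in supraspinatus tendon, beside 25.4 and 24.7% of all genes. The ligand Fgf10 was at 16.2 ± 3.77 against 2.15 ± 1.15 CPM (2.91 ± 0.35). Fgf13 (28.5 ± 8.5 against 2.65 ± 1.56 CPM) and the receptor of muscle precursors Fgfr4 (17.2 ± 3.34 against 1.81 ± 0.266 CPM) were on the supraspinatus side, with slopes of 0.49 and 0.33 on the muscle score and changes of -1.19 (adjusted p = 0.036) and -1.56 (adjusted p = 0.114) with it. Hedgehog and retinoic acid genes gave 10 of 30 higher in Achilles and 4 higher in supraspinatus tendon. The 2 retinaldehyde dehydrogenases ran in opposite directions, Aldh1a2 at 40.9 ± 9.82 CPM in Achilles and 5.22 ± 2.14 CPM in supraspinatus tendon, and Aldh1a1 at 6.63 ± 3.55 and 128 ± 60.4 CPM. With the score Aldh1a2 stayed called (2.94, adjusted p = 0.0015) and Aldh1a1 did not (-4.28 without and -1.15 with it, adjusted p = 0.593, slope 0.60). The retinol carrier Rbp4 (3.55 ± 0.37) and the retinoic acid binding protein Crabp1 (2.67 ± 0.40) were higher in Achilles tendon.

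Markers of other cell types were mostly called towards Achilles tendon. Adipocyte genes were called higher there for 17 of 19 (median 5.02), and 11 were called with the score. Without Achilles 1 the count was 16 (median 4.07). Adipoq (ENSRNOG00000001821), the fat cell hormone adiponectin, stood at 2118, 1074, 1359 and 647 CPM in Achilles 1 to 4 and at 3.14, 5.03, 17.7 and 20.8 CPM in supraspinatus 1 to 4 (6.80 ± 0.67). Leptin (Lep, 7.92 ± 0.70), adipsin (Cfd, 5.94 ± 0.52) and the desaturase Scd (7.52 ± 0.73) were also higher in Achilles tendon, and in all 4 of these genes Achilles 1 was the highest and Achilles 4 the lowest Achilles library. The exception was the insulin-regulated glucose transporter Slc2a4, shared with muscle and higher in supraspinatus tendon (-1.92 ± 0.32, and -1.70, adjusted p = 0.072, with the score). The summed level of the list was 4789 to 17732 CPM in Achilles and 1019 to 2287 CPM in supraspinatus libraries.

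Schwann cell and myelin genes were called higher in Achilles tendon for 14 of 17 (median 3.35), for 13 without Achilles 1 (median 2.96, where 24.2% of all genes were called higher in Achilles and 24.1% in supraspinatus tendon) and for 5 with the score. The myelin basic protein gene Mbp was at 1107, 88.4, 79.1 and 65.1 CPM in Achilles 1 to 4 and at 5.84, 5.87, 5.71 and 7.91 CPM in supraspinatus 1 to 4 (5.73 ± 0.92, 3.62 without Achilles 1, and 3.37, adjusted p = 0.126, with the score). Achilles 1 set the size of the change, but the other Achilles libraries were also above every supraspinatus library. The Schwann cell factor Sox10 was more even, at 9.75, 5.2, 5.66 and 6.97 against 0.588, 0.407, 0.614 and 0.485 CPM (3.71 ± 0.36, and 3.81 with the score), and so was Gfra3, a receptor subunit of neurons and glia (9.07 ± 0.806 against 0.887 ± 0.325 CPM). Of 11 keratinocyte genes 6 were called higher in Achilles and 1 in supraspinatus tendon, and without Achilles 1 the counts were 3 and 1.

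Immune and red cell markers were called in the same direction. Mast cell and neutrophil genes were called higher in Achilles tendon for 16 of 18 (median 3.18), with the mast cell proteases Cma1 (32.1 ± 10.5 against 3.62 ± 1.21 CPM) and Cpa3 (28.5 ± 14.8 against 3.06 ± 0.78 CPM). So were 9 of 10 erythroid genes, with the haemoglobin chain Hbb at 273 ± 30.4 against 43.1 ± 13 CPM and the haem enzyme Alas2 at 14.4 ± 2.21 against 2 ± 1.01 CPM. Near-identical haemoglobin genes may share reads. Lymphocyte genes were called higher for 7 of 13 and macrophage genes for 6 of 15. The macrophage receptors Mertk (1.40 ± 0.15) and Adgre1 (1.42 ± 0.29) passed, while Csf1r did not (0.38 ± 0.26, adjusted p = 0.229), although it was called on library totals. With the score calls towards Achilles tendon numbered 9 for mast cells and neutrophils, 6 for erythroid cells, 3 for lymphocytes, 2 for macrophages and 4 for endothelium. The macrophage median was 0.53 without and -0.39 with the score, where Adgre1 was at 0.56 (adjusted p = 0.407) and Mertk at 1.37 (adjusted p = 0.0046). Endothelial genes were called higher in Achilles tendon for 7 of 17, among them the angiopoietin receptor Tek (221 ± 32.9 against 92.9 ± 28.4 CPM) and Egfl7 (174 ± 27.7 against 72.3 ± 20.1 CPM). The junction protein Cdh5, present in all endothelium, did not pass (0.22 ± 0.25, adjusted p = 0.483), and it too was called on library totals. Pericyte and smooth muscle genes were called on both sides, 6 of 14 higher in Achilles and 4 in supraspinatus tendon, and 3 and 4 without Achilles 1, with Notch3 (1.18 ± 0.25) on the Achilles and Cspg4 (-1.24 ± 0.16) on the supraspinatus side. None of the genes in the lists of endothelial, Schwann, mast cell, macrophage, lymphocyte and erythroid markers was called higher in supraspinatus tendon in the fit without the score, in the fit with it or on library totals. The muscle share, higher in every supraspinatus library, moved with these lists, and its part in them was not tested.

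Cell cycle genes were called higher in Achilles tendon for 28 of 30 (median 2.27), for 26 with the score and 29 without Achilles 1. The replication helicase subunit Mcm6 stood at 54.4, 62.4, 60.4 and 58.9 CPM in Achilles 1 to 4 and at 15.2, 20.2, 21.3 and 14 CPM in supraspinatus 1 to 4 (1.74 ± 0.15). The topoisomerase Top2a was at 15.1, 29.4, 40.2 and 46.1 against 2.46, 3.71, 4.07 and 2.02 CPM (3.41 ± 0.36), and the proliferation marker Mki67 was at 6.47, 15.2, 21 and 29 against 1.86, 3.71, 3.91 and 2.85 CPM (2.54 ± 0.45). The tendons did not overlap in any of these genes, and the cyclin Ccnd2, chosen by its p, was also higher in Achilles tendon (301 ± 27.5 against 114 ± 10.1 CPM, 1.40 ± 0.091, adjusted p = 3.5e-07).

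Immediate early and heat shock genes were called higher in supraspinatus tendon for 12 of 31 and in Achilles tendon for none (median -0.63, and -0.18 on library totals, where 9 and 1 were called). The small heat shock protein Hspb1 was at 501, 486, 340 and 481 CPM in supraspinatus 1 to 4 and at 83.2, 172, 168 and 186 CPM in Achilles 1 to 4 (-1.57 ± 0.21), and its adjusted p with the score was 0.055. Fos stood at 78.3, 81.3, 292 and 1161 CPM in supraspinatus 1 to 4 and at 118, 36.2, 68.8 and 34.1 CPM in Achilles 1 to 4 (-2.65 ± 0.87, adjusted p = 0.02). Supraspinatus 4 set most of that difference, and without it Fos (-1.19, adjusted p = 0.189) and Nr4a1 (-1.67, adjusted p = 0.094) were not called. Fos also missed the threshold without Achilles 2 (-2.47, adjusted p = 0.054) or Achilles 4 (-2.44, adjusted p = 0.054), and Nr4a1 without Achilles 3 (-2.38, adjusted p = 0.051) or Achilles 4 (-2.32, adjusted p = 0.051).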

How the data were processed

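RNA of 4 rat tendons was sequenced in 16 libraries, of which 4 Achilles and 4 supraspinatus libraries were compared. The authors deposited raw counts, whole numbers for 23285 Ensembl genes, 1 column per library. Per the submitters' processing notes the tools were HISAT2, FastQC and edgeR and the build rn6, with no versions or roles. The sources used here give no counting tool, annotation release or strand setting. A further deposited table holds, per the file headers, log2 fold changes and p-values, unadjusted and as FDR, for each pair of tendons. Of the 12588 genes in the authors' deposited table, 6871 have an FDR under 0.05 for this pair, and all 6356 of them that were also called here have the same sign. Gene positions on rn6 are not used here.

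Counts were filtered with filterByExpr (minimum count 10, minimum total 15), scaled by TMM and fitted in edgeR 4.0.16 on R 4.3.3 with 1 coefficient per tendon over all 16 libraries (12 residual degrees of freedom). SEs are the size of the change over the square root of F. The muscle score used a prior count of 2. Floors of 3 counts cover counting error only. No 2 libraries agreed within sampling noise. The fit without the score was run on simulated counts with set changes in some genes. These counts held no shift in muscle RNA between tendons, so the run covers neither that shift nor the score. Alternatives used DESeq2 1.42.0, limma 3.58.1 (limma-voom), other scalings, filters, scores, a replicate block and fits without each library. DESeq2 gave no adjusted p for 48 genes. Exact permutation tests and figures used Python 3.11.15.

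Of 883 symbols in 35 gene lists 832 matched a gene of the table, 13 through older names in RefSeq. The other 51 are not analysed here. Members and lists were chosen with earlier results of these data known. Genes were named by a rule: called genes with a symbol, no overlap of libraries and 5 CPM or more on average in the tendon with more, then by size or p among genes called with the score, by size among those lost, and by level within lists, plus 11 tendon and limb genes in any case. Not all that met it are named. List members named without meeting it (slow fibre, tendon cell, HOX and cell type genes) were chosen after their values were seen. With 3 counts or fewer in every library of the lower tendon, levels replace fold changes. Promoters come from RefSeq, build GRCr8.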

Additional observations from a re-analysis of the deposited data

Results flagged for a closer look

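Within each tendon, the gap between the highest or lowest library and the nearest other library was compared with the range of the 4 libraries, for the 141 genes named and the muscle share. In 18 of 284 groups of 4 the gap exceeded Dixon's 95% critical value, where chance flags about 1 in 20 groups. Achilles 1 stood apart in 6 of them. It was high for the myelin gene Mbp (1107 against 65.1 to 88.4 CPM), for the mast cell genes Cma1 (47.8 against 25.3 to 27.8) and Cpa3 (50.8 against 20.3 to 22), for Frzb (37.7 against 17.1 to 19.1) and for Nr4a1 (76.3 against 20.5 to 23.6). It was low for Isl1 (12.8 against 22.8 to 24.4).

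Supraspinatus 4, the library with the largest muscle share, stood apart in 6 groups. It was high for Mb (11631 against 4230 to 5186 CPM), Slc2a4 (735 against 358 to 396), Fgfr4 (22.2 against 15.2 to 16), Mbp (7.91 against 5.71 to 5.87) and Hoxc11 (0.0162, a single count, against 0), and low for Meis1 (13.8 against 16.8 to 17.4). Achilles 4 was high for Sox9 (24.8 against 7.4 to 7.6) and low for Oxtr (17.5 against 28.7 to 31), and Achilles 2 was high for Myh8 (0.683 against 0.272 to 0.334). Supraspinatus 1 was low for Hbb (23.7 against 48.5 to 50.9), supraspinatus 3 was low for Hspb1 (340 against 481 to 501), and supraspinatus 2 had the only count of Lpo in that tendon (0.0127 CPM).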

How the results depend on the processing

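The count of genes called was 8497, and each of the other scalings, tools and filters, and each fit without a library, gave between 7585 and 10705, with leave-one-out counts of 7601 to 8284, and a fit of the 2 tendons alone gave 7354. It was 2276 (13.4%) against a 2-fold threshold and 2234 with the muscle score. The score fit was less stable: 960 genes were called in a fit of the 2 tendons alone, 112 with the share of counts as the score, and leaving out 1 library gave 1093 (without Achilles 2) to 2514, with 1202 without Achilles 4 and 2636 without patellar 1. The cause was not tested. The difference in muscle share was 16.8 percentage points, 7.34 for the fast list alone, 21.2 on TMM-scaled totals and 15.2 to 17.9 with a library left out.

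Of 127 named genes called, all 125 with a DESeq2 adjusted p were called there, and all 127 with limma-voom, with median-of-ratios factors, with TMM without muscle genes, and under either other filter. With the muscle score 73 kept their call, 47 lost it and 7 changed sign: Acta1 (1.29), Ckm (0.05), Mb (0.38), Neb (1.26), Mybpc1 (0.13), Myf6 (1.09) and Col22a1 (0.19). Of these Neb and Myf6 were called. The fit is circular for such genes, and the cause of the other losses was not tested. Deviations of same-numbered Achilles and supraspinatus libraries from their tendon means had correlations of -0.334, 0.042, 0.15 and -0.025. Not every library correlated best with its own number. Such correlations cannot tell whether a number stands for an animal, since differences in tissue content between libraries enter them too. The numbers were not used to pair samples in the main fit. With a replicate block 8356 genes were called, and 1940 with the score and the block, and of the named genes Fos lost its call (adjusted p = 0.097) while Thbs4 (0.043) and Kera (-1.01) gained one and Scx moved to 0.44 (adjusted p = 0.587). Depth limits only genes near 3 counts, such as Isl1 and Hoxc11 in supraspinatus libraries.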
